A study of Mus musculus with 11 samples.

Results

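The transcript profile of adult gastrocnemius was taken from the 4 wild-type libraries of a series of 11, chosen by the genotype label alone. The gastrocnemius is the main calf muscle, a mixed muscle in which fast fibres prevail in the mouse. Each library came from the muscle of 1 mouse labelled wildtype, and no other genotype enters any value given here. The labels put tamoxifen treatment on every mouse of the series, wild type included, begun at 3 months of age in chow for 7 weeks, with muscle taken 7 months after the start. Whether the wild-type mice carried the skeletal actin Cre transgene or floxed alleles was not stated, nor were strain and sex. RNA (450 ng per library) was read by QuantSeq 3' mRNA FWD, a method that primes on poly(A) and sequences a tag near the 3' end of each transcript. A tag therefore stands for a transcript whatever its length, and levels are given as counts-per-million of the library total (CPM). The deposited TPM (which also divides by transcript length) serves as the second scale. With 1 group there is nothing to test between groups, and 4 mice cannot give p = 0.05 in an exact two-sided sign-flip permutation test, so values are given with their SD (n = 4) and the number of libraries on each side. Values listed in a row of 4 follow the order wild-type 1 to wild-type 4.

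A muscle fibre shortens when myosin heads of the thick filament pull on actin of the thin filament. Troponin and tropomyosin on the thin filament hold the heads off until calcium is released from the sarcoplasmic reticulum, and a calcium pump then returns it. Most sarcomere proteins come in fast and slow forms from separate genes, so the ratio of the forms describes the fibre makeup of a muscle. Fibre ATP is restored by creatine kinase, by glycolysis from glycogen, and by mitochondria, whose respiratory chain is built from mitochondrial and nuclear genes together.

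Library totals ran from 3134575 to 6328533 counts, and 1 CPM corresponded to 3.13 to 6.33 counts. Between 15032 and 16726 genes had a count. Of 7 fibre genes listed as markers, among them Acta1, Ckm, Ttn and Dmd, 7 were above 1 CPM in all 4 libraries with a summed level of 85929, 78355, 88266 and 71439 CPM. No library repeated another. Wild-type 4 stood apart in RNA content: the mitochondrial ribosomal RNA mt-Rnr2 was at 32851, 31952, 23937 and 4189 CPM. Genes with a longest transcript of 8 kb or more were below the mean of the other 3 libraries in wild-type 4 for 81.7% of 301 genes (median log2 -0.37), against 38.6% of 324 genes under 1 kb (median log2 0.15). Wild-type 3 was the library with Xist, the RNA of the inactive X chromosome (0, 0, 112 and 0 CPM), and without the Y-linked Ddx3y (53.6, 80.4, 0 and 52.8 CPM). In this group that mouse, its library and the presence of Xist cannot be told apart. No measure of RNA quality stands in the labels, and its part in the values was not tested. In bulk muscle, fewer cells of a type and less RNA per cell cannot be told apart.

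Very few genes made up most of the tags. The highest 22 to 26 genes of a library held 50% of its tags and the highest 1933 to 2228 held 90%, while 10134 genes were at 1 CPM or more in all 4 libraries. The single highest gene, mt-Nd4 in every library, held 6.49% to 9.82%. The 10 highest genes held 35.6% ± 2.56, the 100 highest 63.3% ± 1.11 and the 1000 highest 83.5% ± 0.728. The steepest start of the curve was that of wild-type 4 and the flattest that of wild-type 3. The leading genes were largely shared: 8 were among the 10 highest of every library, 25 among the 30 highest, 76 among the 100 highest and 810 among the 1000 highest. The 100 highest genes had a median longest transcript of 1920.5 bases, against 3425 bases for the genes at 1 CPM or more.

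**Figure D1:**
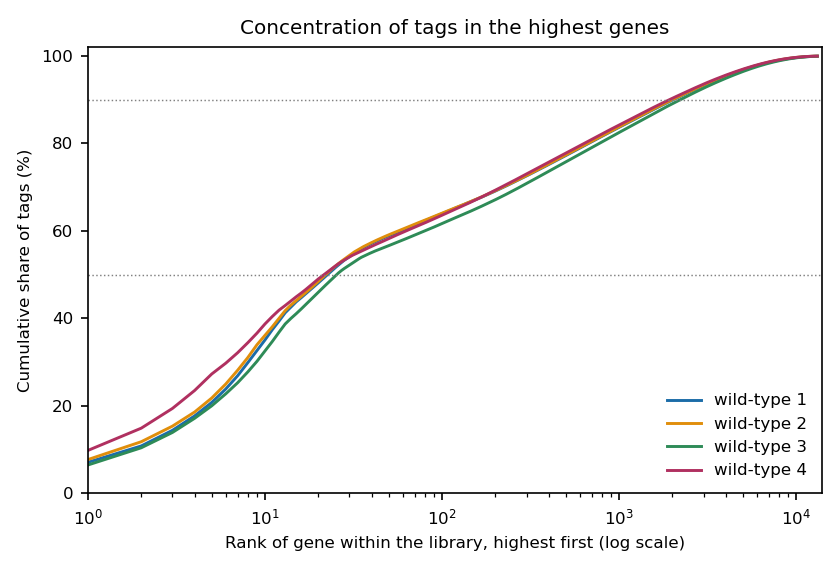
Cumulative share of tags (vertical axis, percent) against the rank of genes within each library (horizontal axis, log scale), with 1 line per wild-type library over the genes with at least 10 counts. The lines cross 50% (dotted) at 22 to 26 genes and 90% (dotted) at 1933 to 2228 genes, and wild-type 4 lies highest at the left end.

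The 30 highest genes by mean CPM were 11 encoded by mitochondrial DNA, 10 of the contractile apparatus, 4 metabolic, 3 of calcium handling and 2 in no class. First came mt-Nd4, a subunit of complex I (chromosome M, 10167 to 11544), at 71011, 77311, 64900 and 98198 CPM. It was followed by mt-Cytb of complex III (37409, 40719, 39324 and 50836 CPM) and mt-Co3 of complex IV (30662, 32064, 28621 and 45081 CPM). All 3 were highest in wild-type 4. The highest nuclear gene with an established product was Myh4, the fast 2B myosin heavy chain (chromosome 11, 67238029 to 67260446), ranked 7 at 30860, 29018, 34978 and 23857 CPM, lowest in wild-type 4. Acta1, skeletal alpha actin (chromosome 8, 123891769 to 123894751), was ranked 10 at 23481, 21508, 23861 and 23106 CPM and varied little (22989 ± 1034 CPM). The order of neighbours in this list was often within their spread: mt-Nd1 (31292 ± 5305 CPM), mt-Nd2 (30060 ± 6855 CPM) and Myh4 (29678 ± 4612 CPM) took ranks 5 to 7 and did not differ beyond their SD. On deposited TPM, 25 of the 30 genes were again among the 30 highest, and 64 of the 100 highest were shared. Genes with long transcripts ranked lower by TPM, among them Myh4 at 27, Ttn at 30 and Neb at 38.

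**Figure D2:**
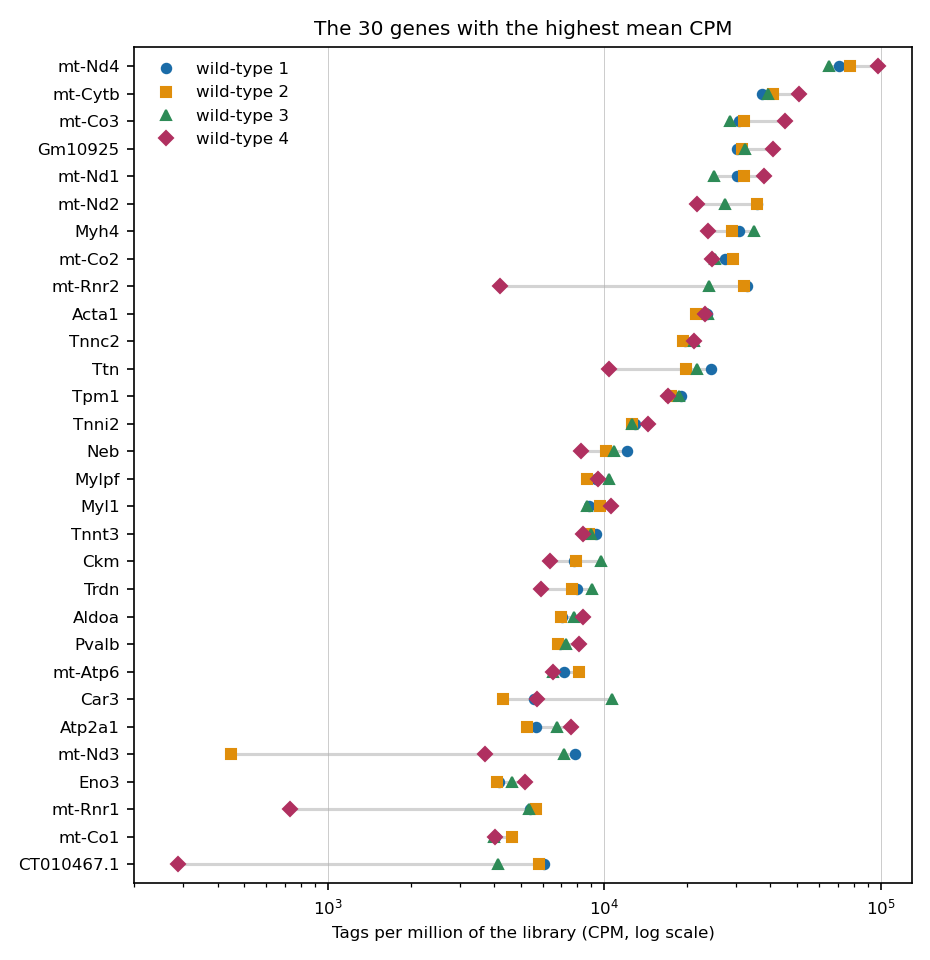
Level of the 30 genes with the highest mean CPM, ordered by that mean (horizontal axis, CPM, log scale), with 1 point per wild-type library and a grey line from the lowest to the highest. Most genes lie within a narrow band, while mt-Rnr2, mt-Rnr1 and CT010467.1 are far lower in wild-type 4 and mt-Nd3 is far lower in wild-type 2.

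By function, 29.1% ± 1.94 of tags came from genes of mitochondrial DNA and 19.4% ± 1.11 from contractile genes. Nuclear genes for mitochondrial proteins held 5.93% ± 0.703, metabolic enzymes of the cytosol 5.23% ± 0.420, the translation apparatus 3.87% ± 0.347 and calcium handling 3.16% ± 0.185. Protein turnover held 1.76% ± 0.105. The 161 listed marker genes of non-fibre cells held 0.555% ± 0.0906, which is not the whole RNA of those cells. Membrane and cytoskeleton held 0.444% ± 0.0260, long noncoding RNAs 0.409% ± 0.119, fibre transcription and signalling regulators 0.316% ± 0.0131 and myoglobin 0.0941% ± 0.0446. Genes in no class held the remaining 29.7% ± 0.805. A 95% Wilson interval, which covers counting error only, reached at most 0.0509 percentage points to either side of a share, and in each class its reach was below that class's own SD. The order of the 4 largest named classes was the same in all 4 libraries except that metabolic genes passed nuclear mitochondrial genes in wild-type 3 (5.67% against 5.46%). Without wild-type 4, contractile genes held 19.9% ± 0.801, mitochondrially encoded genes 28.7% ± 2.20 and nuclear mitochondrial genes 5.59% ± 0.187.

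**Figure D3:**
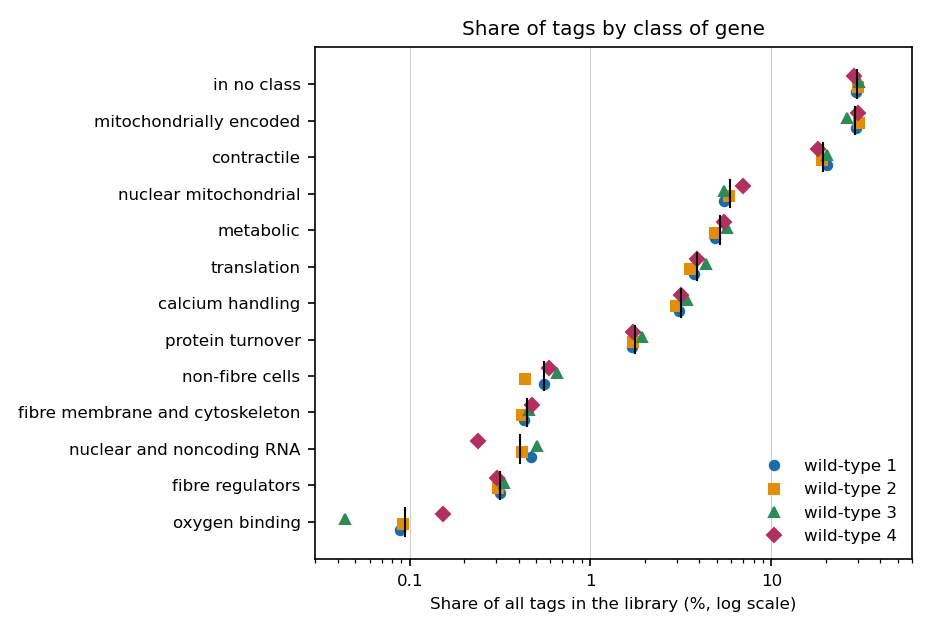
Share of all tags by class of gene (horizontal axis, percent, log scale), with 1 point per wild-type library and a black bar at the mean. Mitochondrially encoded and contractile genes lie near 29.1% and 19.4%, and the widest spread in proportion is that of myoglobin (oxygen binding), from 0.0439% in wild-type 3 to 0.152% in wild-type 4.

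The contractile share was carried by the thin filament (10.01%, 9.37%, 9.95% and 9.60% of tags), then the thick filament (5.77%, 5.57%, 6.19% and 5.33%) and the Z-disc, titin and filament anchoring genes (4.58%, 4.02%, 4.203% and 3.16%). Of 88 genes listed as contractile, 81 were at 1 CPM or more in all 4 libraries. On the thin filament, Acta1 was joined by the calcium sensor troponin C of fast fibres, Tnnc2 (20325 ± 984 CPM), the tropomyosin gene Tpm1 (18035 ± 917 CPM) and the inhibitory troponin Tnni2 (13145 ± 845 CPM). These 4 genes had coefficients of variation (CV, the SD as percent of the mean) between 4.498% and 6.43%. Nebulin, Neb, the giant protein that runs along the thin filament, was at 12084, 10197, 10822 and 8271 CPM, lowest in wild-type 4. On the thick filament the fast regulatory light chain Mylpf (9502 ± 716 CPM) and the essential light chain Myl1 (9453 ± 884 CPM) stood close together and did not differ beyond their spread. Myosin binding protein C of fast fibres, Mybpc2, was at 2064 ± 165 CPM. Titin, Ttn, the giant spring from Z-disc to M-line, was at 24416, 19809, 21763 and 10379 CPM. Its mean of 19092 CPM was 21996 CPM without wild-type 4. After titin came the fast-fibre alpha actinin Actn3 (2870 ± 473 CPM), the intermediate filament desmin, Des (2317 ± 123 CPM), and the Xin repeat protein Xirp2 (2144 ± 375 CPM).

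Acta1 and Myh4 lead the thin and thick filament nuclear genes, and the 250 bases before their RefSeq start are shown because both hold letters of motifs tied to muscle genes. The windows are GRCm38.p6, 5′ to 3′ on the gene's strand, Acta1 at chr8:123894776-123895025 on the minus strand and Myh4 at chr11:67237562-67237811 on the plus strand. Capitals mark TATAAA, the CArG box (bound by serum response factor) and the MEF2 motif (bound by MEF2 factors) as a search of both strands found them. The same search found none of these motifs in the windows of Tnnc2, Ckm, Mylpf and Aldoa, and only a MEF2 motif in Pvalb.
Acta1: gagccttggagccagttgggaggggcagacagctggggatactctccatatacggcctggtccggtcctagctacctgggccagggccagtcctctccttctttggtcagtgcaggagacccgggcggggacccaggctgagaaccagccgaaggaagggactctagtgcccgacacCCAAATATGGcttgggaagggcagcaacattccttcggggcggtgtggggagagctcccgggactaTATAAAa
Myh4: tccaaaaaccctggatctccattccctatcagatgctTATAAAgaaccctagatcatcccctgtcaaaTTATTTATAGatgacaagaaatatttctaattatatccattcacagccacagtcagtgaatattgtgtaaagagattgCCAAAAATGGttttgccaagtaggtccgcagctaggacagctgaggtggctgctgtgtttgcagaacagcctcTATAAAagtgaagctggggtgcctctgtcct
Distances here are from the RefSeq start. GENCODE starts both genes further downstream, Acta1 at 123894751 and Myh4 at 67238029, so the distances depend on the annotation. In Acta1 the CArG box begins 73 bases and TATAAA 7 bases before the start. In Myh4 the MEF2 motif begins 182 bases before the start and overlaps a TATAAA, the CArG box begins 104 bases before it, and the TATAAA nearest the start begins 31 bases before it. Windows from 250 bases before to 50 bases after a start were compared for 20 matched genes of the 30 highest nuclear protein-coding genes (24 windows) and for 32851 windows of 27025 genes. The MEF2 motif was in 16.7% of the former and 1.86% of the latter, and the CArG box in 8.33% and 1.63%. TATAAA was in 12.5% and 13.6%, and the E-box, CANNTG, in 87.5% and 72.3%. Over the 10983 windows of nuclear protein-coding genes at 1 CPM or more the shares were 1.48% for MEF2, 1.31% for CArG, 7.34% for TATAAA and 63.2% for the E-box. Over the 99 windows of the 100 highest nuclear protein-coding genes (75 matched) they were 7.07%, 6.06%, 16.2% and 73.7%. These shares describe letters in a window and were not tested, and 4 windows with MEF2 and 2 with CArG make up the first figures.

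Transcripts of mitochondrial DNA divided into messenger RNAs (25.7%, 26.7%, 23.3% and 29.7% of tags) and ribosomal RNAs (3.82%, 3.76%, 2.93% and 0.492%). Wild-type 4 thus had the highest share of the former and by far the lowest of the latter, and the ribosomal mean of 2.75% ± 1.56 became 3.50% without it. The smaller ribosomal RNA, mt-Rnr1, followed mt-Rnr2, at 5383, 5668, 5346 and 728 CPM. All 13 messenger RNAs were at 1 CPM or more in every library, from mt-Nd4 down to mt-Nd6 (11.4, 10.5, 5.37 and 2.34 CPM), which alone of them lies on the light strand. Complex I subunit mt-Nd5 was at 3546 ± 545 CPM, far below its neighbour mt-Nd4. The 22 transfer RNA genes had almost no tags. CT010467.1, annotated as ribosomal RNA on chromosome 17 (39846353 to 39848827), was also lowest in wild-type 4, at 6059, 5814, 4126 and 287 CPM.

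A block of pseudogenes on chromosome 1 holds copies of mitochondrial DNA in the nuclear genome. Of these, Gm10925, Gm28438, Gm29216 and Gm10222 took a further 3.95% ± 0.548 of tags, and with them the mitochondrial total was 33.0% ± 2.40. The copies Gm28661 of mt-Co2 (681 of 681 aligned bases) and Gm28437 of mt-Co3 (783 of 783) were not counted in this share. Gm10925 (24613974 to 24614651) matches mt-Atp6, a subunit of the ATP synthase, in 678 of 678 aligned bases and ranked 4 among all genes at 30193, 31424, 32254 and 40865 CPM. Reads that fit both cannot be assigned by sequence, so only the sum is firm: mt-Atp6 with Gm10925 came to 40781 ± 4521 CPM. The split was least stable for mt-Nd3 of complex I, whose copy Gm28438 (24612775 to 24613119) matches in 344 of 345 aligned bases. The first 33 bases of both are shown to mark the one difference, T3C, in capitals (positions count from 1 at the 5′ end of the mt-Nd3 transcript, with the mt-Nd3 base first).
mt-Nd3: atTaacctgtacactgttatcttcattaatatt
Gm28438: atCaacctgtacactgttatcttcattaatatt
In wild-type 2 most tags went to the copy and in the others most went to mt-Nd3: mt-Nd3 was at 7831, 445, 7167 and 3705 CPM and Gm28438 at 522, 8545, 269 and 1119 CPM. Their sum was 8353, 8990, 7436 and 4824 CPM, with a CV of 24.8% in place of 71.3% and 152%. The copies Gm29216 of mt-Co1 (482 of 483 bases) and Gm10222 of mt-Nd4l (294 of 294 bases) gave sums of 6135 ± 1803 and 1469 ± 175 CPM. Summing did not lower the CV of every gene. It was 7.32% for mt-Co1 alone and 29.4% for its sum, and 10.5% and 11.1% for mt-Atp6. For mt-Nd4l it was 56.7% alone and 11.9% for the sum.

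Nuclear genes for mitochondrial proteins were broadly present: 281 of 292 listed genes were at 1 CPM or more in all 4 libraries, and no single gene dominated. The adenine nucleotide carrier Slc25a4, which exchanges ATP for ADP across the inner membrane, led at 4159, 4255, 4017 and 3539 CPM. Complex V held 1.18% ± 0.189 of tags, with the membrane-ring subunit Atp5g3 at 1442 ± 245 CPM. Complex I held 1.06% ± 0.134, led by Ndufb8 (642 ± 180 CPM), complex IV 0.918% ± 0.0944, led by the muscle subunit Cox6a2 (2040 ± 315 CPM), complex III with cytochrome c 0.410% ± 0.0600, and complex II 0.125% ± 0.0269. The tricarboxylic acid cycle with pyruvate entry held 0.535% ± 0.0565, led by malate dehydrogenase Mdh2 (616 ± 150 CPM). Fatty acid oxidation held 0.228% ± 0.0114, and the mitochondrial ribosome 0.326% ± 0.0301 over 78 listed genes. Each of these 8 subclasses and the carriers was highest in wild-type 4, as were 181 of the 279 members at a mean of 5 CPM or more (2475 of 7640 over all genes). The level in wild-type 4 was also above the mean of the other 3 libraries by a median log2 of 0.37 in 62 nuclear mitochondrial genes under 1 kb (0.08 in 262 other genes), 0.29 in 63 of 1 to 2 kb (0.11 in 549), 0.23 in 81 of 2 to 4 kb (0.00 in 1202) and 0.25 in 36 of 4 to 8 kb (-0.21 in 1094), while none of those at 20 CPM or more was longer. The oxygen store myoglobin, Mb, moved in the same order, at 880, 919, 439 and 1525 CPM.

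Among metabolic tags, glycolysis and lactate genes held 1.96%, 1.93%, 2.09% and 2.40% of tags, creatine and adenine nucleotide genes 1.03%, 1.06%, 1.25% and 0.885%, glycogen genes 0.646%, 0.657%, 0.742% and 0.924%, and lipid uptake and storage 0.154%, 0.198%, 0.203% and 0.201%. Muscle creatine kinase, Ckm, which rebuilds ATP from phosphocreatine, was the highest metabolic gene at 7798, 7928, 9773 and 6387 CPM. Aldolase, Aldoa (7541 ± 676 CPM for the higher of the 2 identifiers with that symbol), and muscle enolase, Eno3 (4518 ± 503 CPM), led glycolysis, followed by pyruvate kinase, Pkm (1611 ± 552 CPM), and lactate dehydrogenase A, Ldha (1278 ± 111 CPM). Glycogen phosphorylase, Pygm, which frees glucose from glycogen, was at 3097, 3153, 3278 and 5104 CPM, highest in wild-type 4. Carbonic anhydrase 3, Car3, was at 5565, 4293, 10666 and 5732 CPM, and its level in wild-type 3 was the highest by a wide margin. The polyamine gene Amd1, S-adenosylmethionine decarboxylase, ran the other way, at 2022, 2459, 404 and 1763 CPM. Its near-copies Amd2 and Amd-ps3 share its reads, and the sum of the 3 was 2438 ± 1298 CPM, with a CV of 53.2% that the sharing of reads did not lower.

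Calcium handling divided into release and coupling (1.299%, 1.24%, 1.42% and 1.10% of tags) and uptake, buffering and signalling (1.78%, 1.72%, 1.98% and 2.08%). Triadin, Trdn, which anchors the calcium release complex, led the first at 8012, 7680, 9080 and 5913 CPM. The release channel itself, Ryr1, was at 916 ± 139 CPM and its voltage sensor Cacna1s at 359 ± 38.0 CPM. Parvalbumin, Pvalb, the soluble calcium buffer of fast fibres, led the second at 6948, 6812, 7301 and 8088 CPM. The fast calcium pump Atp2a1 was at 6327 ± 1056 CPM. Calsequestrin, Casq1, the store protein of the reticulum, was at 791, 774, 776 and 773 CPM, a CV of 1.08%. That is below the 1.68% that counting alone gives at this level. Trdn, Pvalb and Atp2a1 together held 67.4% of the class, more than the 3 leading genes did of the contractile class (37.6%) or the nuclear mitochondrial class (12.6%).

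Genes listed as markers of other cell types held 0.550%, 0.434%, 0.650% and 0.586% of tags. Most of this came from blood and connective tissue. Red cell genes held 0.291%, 0.149%, 0.266% and 0.292%, led by the adult haemoglobin genes Hbb-bs (1153, 553, 952 and 1002 CPM) and Hba-a2 (1009, 578, 973 and 1005 CPM). Haemoglobin genes have near-identical copies, so the split among them is uncertain. Fibro-adipogenic and fibroblast genes held 0.117%, 0.155%, 0.202% and 0.144%, led by the matrix proteoglycan decorin, Dcn (501 ± 118 CPM), and the actin-severing protein gelsolin, Gsn (440 ± 113 CPM). Endothelial genes held 0.0602% ± 0.00947, led by the fatty acid binding protein Fabp4 (274 ± 105 CPM), and mural genes 0.0308% ± 0.00168, led by Rgs5 (136 CPM, SD 12.03). Macrophage and monocyte genes held 0.0138% ± 0.00318, adipocyte genes 0.0135% ± 0.00923, Schwann and nerve genes 0.0123% ± 0.00145 and tendon genes 0.0104% ± 0.00105. Genes listed for satellite cells, the muscle stem cells, held 0.00365% ± 0.000567, with 4 of 10 at 1 CPM or more in all 4 libraries. The 3 highest, Sdc4, Chodl and Cdh15, made up 86.4% of this, and Pax7 was at 1.86, 0.957, 0.948 and 0.977 CPM. Lymphocyte genes held 0.00463% ± 0.00328, and 9 of the 16 had no count in any library, among them Cd3e, Cd4 and Cd8a. Their level came mainly from the immunoglobulin heavy chain Ighm (36.6, 31.6, 4.42 and 68.6 CPM). Of 8 bone, cartilage and skin genes, 6 had no count. At these totals a count of 0 allows up to 0.474 to 0.957 CPM (3 counts, counting error only). The adipocyte gene Adipoq was highest in wild-type 3 (8.49, 6.70, 29.1 and 8.79 CPM), as was the complement factor Cfd (47.2, 53.9, 184 and 84.2 CPM).

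Among other classes, ribosomal protein genes held 2.72% ± 0.298 of tags, led by Rps29 (901 ± 92.9 CPM), and translation factors 1.15% ± 0.0578, led by Tpt1 (2307 ± 143 CPM). The nuclear RNA Malat1 was at 3614, 3143, 3600 and 1196 CPM, lowest in wild-type 4. Hsp90ab1, a cytosolic chaperone, was at 1537 ± 112 CPM. Mef2c, a transcription factor of muscle, was the highest fibre regulator at 1281, 1167, 979 and 942 CPM. Genes in no class were mostly low: 451 of 18172 with a count reached 100 CPM. Beside the mitochondrial copies and CT010467.1 the highest were the actin-binding protein nexilin, Nexn (1904 ± 502 CPM), Ndrg2 (1544 ± 463 CPM), the tubulin Tuba4a (1412 ± 243 CPM), Pde4dip (1349 ± 188 CPM) and the phosphatase Ptp4a2 (1197 ± 172 CPM).

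The fast 2B gene dominated the adult myosin heavy chains. Of the tags of the 4 adult genes, Myh4 (2B) held 90.6%, 90.4%, 94.0% and 86.2%, Myh1 (2X) 5.04%, 5.07%, 3.38% and 5.72%, Myh2 (2A) 4.01%, 4.28%, 2.44% and 7.80%, and the slow Myh7 0.320%, 0.249%, 0.157% and 0.318%. Wild-type 3 had the most Myh4 and the least of the other 3, and wild-type 4 the least Myh4 and the most Myh2. Myh1 (4.80% ± 0.998) and Myh2 (4.63% ± 2.26) did not differ beyond their spread, and Myh1 was the higher in 3 of 4 libraries. Myh4 shares 89.97% of aligned bases with Myh1 and 88.2% with Myh2, and its counts were not whole in any library, so part of its reads were divided among genes by estimate. The developmental chains were close to absent: embryonic Myh3 was at 4.35, 1.91, 3.00 and 2.93 CPM and perinatal Myh8 at 2.28, 0.957, 2.21 and 4.10 CPM.

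Of 46 matched pairs of isoforms or sister genes, the first gene, in most pairs the fast or muscle form, was the higher in all 4 libraries for 44, and no pair had the second higher in all 4. In 42 pairs both genes had a count in every library, with a median log2 ratio of 4.98, and 35 of them had a geometric mean ratio of 10-fold or more. Fast troponin I to slow (Tnni2 to Tnni1) stood at 358, 488, 603 and 546 to 1, and fast troponin C to slow (Tnnc2 to Tnnc1) at 300, 350, 551 and 593 to 1. Troponin T was less one-sided, with Tnnt3 to Tnnt1 at 53.0, 64.8, 83.7 and 54.6 to 1, as was the regulatory light chain, Mylpf to Myl2, at 46.3, 54.1, 90.7 and 48.9 to 1. The calcium pumps Atp2a1 to Atp2a2 stood at 50.9, 53.5, 94.7 and 88.4 to 1, a geometric mean of 69.1 by tags and of 445 by deposited TPM, the largest shift with the scale of the 42 pairs counted in every library. Actinin, Actn3 to Actn2, stood at 13.8, 12.9, 28.9 and 7.85 to 1, a pair in which Actn2 is made in all fibres. For the heavy chain, Myh4 to Myh7 stood at 283, 364, 598 and 271 to 1. Of 12 pairs that set a fast form over a slow one, the ratio was highest in wild-type 3 for 8 and in wild-type 4 for the other 4, and lowest in wild-type 1 for 11. Skeletal over cardiac actin was the opposite, with Acta1 to Actc1 at 249, 154, 75.6 and 138 to 1.

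Enzyme pairs were one-sided too. Ckm to its brain form Ckb stood at 1983, 1243, 1874 and 1635 to 1, and Pfkm to the liver form Pfkl at 544, 571, 384 and 257 to 1. Pygm had 14965, 9882, 20744 and 26124 counts and the brain form Pygb 4, 3, 20 and 6, so this ratio rests on few counts. The same holds for Ryr1 with 4714, 2803, 6703 and 3758 counts and Ryr3 with 6, 7, 3 and 1. The liver gene Fbp1 had no count beside 566, 324, 1002 and 473 counts of the muscle gene Fbp2. Mitochondrial muscle forms led their sisters in Cox6a2 to Cox6a1 (96.8, 114, 73.6 and 81.3 to 1) and Slc25a4 to Slc25a5 (245, 262, 183 and 183 to 1). Cox8b to Cox8a was the steadiest of all pairs, at 9.45, 10.7, 9.26 and 9.25 to 1 (log2 SD 0.10). The muscle forms of translation genes led by less, with Eef1a2 to Eef1a1 at 3.01, 3.07, 2.44 and 4.01 to 1 and Rpl3l to Rpl3 at 12.1, 14.04, 8.47 and 9.59 to 1 (geometric mean 10.8 by tags and 4.42 by TPM).

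Of the 42 pairs, 20 moved by more than 1 SD on deposited TPM without a change of direction and 1 changed direction, and a few were close to even. The complex IV subunits Cox7a1, the heart and muscle form, and Cox7a2 stood at 0.861, 0.988, 0.814 and 1.05 to 1, a mean log2 ratio of -0.11 ± 0.17 that was 0.30 on deposited TPM. Mybpc2 to the slow form Mybpc1 stood at 3.97, 4.11, 5.66 and 9.36 to 1, a log2 ratio of 2.44 ± 0.57 by tags and of 0.05 by TPM. For lactate dehydrogenase, Ldha to Ldhb stood at 15.2, 12.5, 30.05 and 15.2 to 1, with a log2 ratio of 4.10 ± 0.55 by tags and 2.19 by TPM. The AMP-activated kinase subunits Prkag3, typical of fast glycolytic fibres, and Prkag1 stood at 5.88, 5.27, 2.71 and 1.69 to 1. The pump inhibitors myoregulin and sarcolipin, Mrln to Sln, stood at 4.14, 11.4, 22.0 and 22.0 to 1, since Sln was at 29.6, 12.1, 6.64 and 5.47 CPM while Mrln stayed between 120 and 146 CPM. Sarcolipin was thus the uneven member of that pair.

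**Figure D4:**
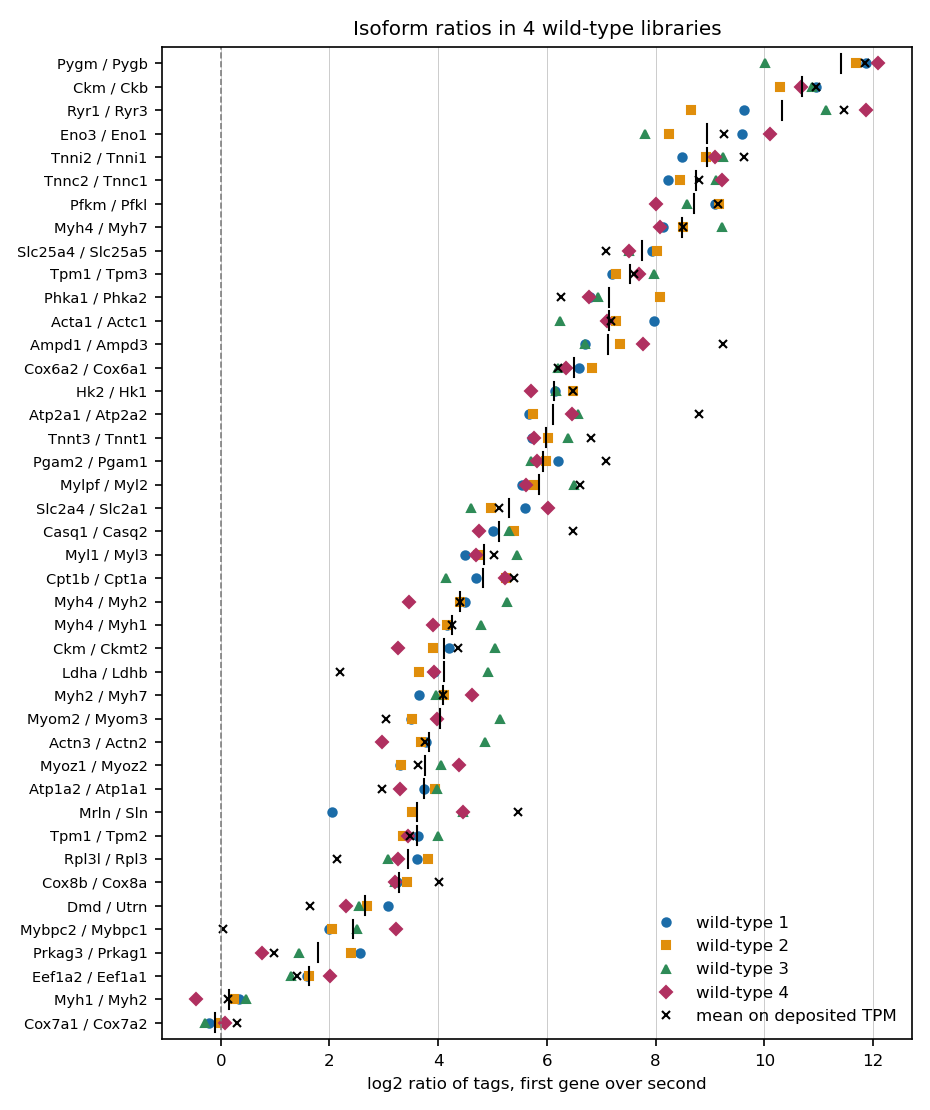
The log2 ratio of tags of the first gene over the second (horizontal axis) for the 42 pairs with counts in every library, with 1 point per wild-type library, a black bar at the mean and a cross at the mean on deposited TPM. All but the lowest 2 pairs lie to the right of the dashed line of equal tags in every library, and the crosses of Atp2a1 to Atp2a2 and Mybpc2 to Mybpc1 lie far from their points.

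Between the 4 mice, 3651 genes with a mean of 20 CPM or more had a median CV of 16.97%, against a median of 6.76% from counting alone. Without wild-type 4 the median CV was 9.50%. Only 79 genes were above 50%, and 756 were below 10%. The edgeR common biological coefficient of variation was 22.2%, and 15.6% without wild-type 4. Wild-type 4 was the highest library for 1312 of the 3651 genes and the lowest for 1582. Wild-type 3 was the highest for 1168 of the 3651 and for 39 of the 79 genes above 50%. Among the steadiest genes at 100 CPM or more were the GTPase Rabl6 (139, 139, 137 and 136 CPM), Casq1, Gm10012, the ubiquitin ligase Ubr3, the elongation factor Eef1a2 (568, 552, 571 and 577 CPM), the membrane-shaping protein Bin1 and Pitpnc1, with CVs from 1.01% to 2.35%. All of these except Gm10012 varied less than counting alone gives, as in Rabl6 (1.01% against 3.99%) and Pitpnc1 (2.35% against 4.10%). Their order by CV therefore carries little meaning. The most variable were Xist, Amd-ps3, Gm10163, Pdk4, Gm28438, Gm45660, Gm15920, Arrdc2, Mt2, Ucp3, Scd1 and Gm10240, of which the 6 named Gm or ps are predicted genes or pseudogenes.

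**Figure D5:**
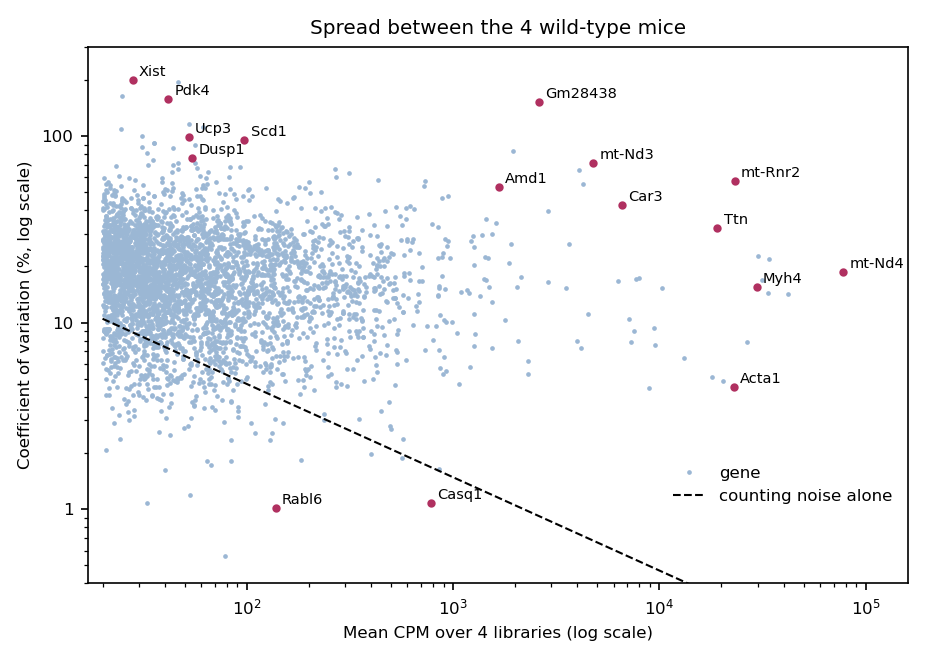
Coefficient of variation over the 4 wild-type libraries (vertical axis, percent, log scale) against mean CPM (horizontal axis, log scale) for 3651 genes, with the dashed line showing counting noise alone and labelled points for some of the genes named in the text. Most genes lie above the line at a median of 16.97%, with Xist and Pdk4 at the top and Casq1 and Rabl6 under the line.

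Immediate early and fasting-response genes were mostly highest in wild-type 3, the library that was highest for 2539 of all 7640 genes at 5 CPM or more. Polyamine genes were not, with 3 of 9 highest and 5 of 9 lowest there. Immediate early genes, which are transcribed within minutes of a stimulus, were highest there for 13 of 14 members at 5 CPM or more (median CV 59.8%): the AP-1 subunit Fos stood at 4.55, 7.34, 40.1 and 4.30 CPM, the nuclear receptor Nr4a3 at 2.28, 1.28, 24.8 and 4.88 CPM, and the phosphatase Dusp1 at 34.4, 40.8, 116 and 26.8 CPM. Genes of the fasting and glucocorticoid response were highest there for 17 of 19 (median CV 58.5%). Pdk4, a kinase that inhibits pyruvate dehydrogenase, stood at 15.5, 8.29, 139.5 and 2.93 CPM. The mitochondrial carrier Ucp3 stood at 39.9, 13.4, 129 and 27.7 CPM. The metallothionein Mt2 stood at 10.1, 6.06, 73.8 and 34.0 CPM, and the ubiquitin ligase Trim63 at 358, 263, 807 and 301 CPM. The stress gene Ddit4 was an exception within that list, at 20.1, 7.66, 84.5 and 113 CPM, with its highest value in wild-type 4. Scd1, the fatty acid desaturase, was at 64.6, 35.7, 235 and 54.1 CPM. The summed level of the adipocyte markers was also highest in wild-type 3 (74.5, 74.7, 270 and 123 CPM) but differed in the order of the others. The part of adipocytes in the Scd1 level was not tested. Genes of the translation class were highest in wild-type 3 for 89 of 149 members, beside the 2539 of 7640 over all genes.

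Clock genes had no common order of the mice: of 16 members at 5 CPM or more, 2, 5, 7 and 2 were highest and 2, 5, 5 and 4 lowest in wild-type 1 to 4, with a summed level of 696, 705, 693 and 577 CPM. The 4 named here are those with a CV above 50%. Dbp, an output factor of the clock, stood at 30.6, 37.3, 4.27 and 6.25 CPM and Per3 at 20.5, 21.4, 8.06 and 8.40 CPM, high in wild-type 1 and 2. The repressor Nfil3 stood at 11.0, 11.8, 39.0 and 34.4 CPM and Per1 at 10.1, 3.19, 21.3 and 19.3 CPM, high in wild-type 3 and 4. The labels do not give the hour at which muscle was taken.

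The genes listed for fast fibres varied less between the mice than those listed for slow fibres. The 15 fast-fibre genes had a median CV of 7.998% and a summed level of 131371, 126226, 139380 and 130343 CPM. Besides sarcomere genes they include Atp2a1 and Casq1 of calcium handling. The 15 slow-fibre genes had a median CV of 24.97% and a summed level of 2234, 1996, 1390 and 1995 CPM, with 12 lowest in wild-type 3 and 10 highest in wild-type 1. Among them the fibre strain sensor Ankrd2 stood at 93.8, 68.6, 42.3 and 142 CPM and the myomesin Myom3 at 53.2, 53.0, 19.4 and 51.2 CPM. Actn2, listed with them although it is made in all fibres, stood at 200, 197, 123 and 334 CPM. Counting alone gives a CV of 5.07% for Ankrd2 and 7.27% for Myom3, against 0.270% for Myh4 and 1.31% for Myoz1 of the fast list. Genes of developing fibres reached 5 CPM for 8 of 14 members, led in spread by the embryonic light chain Myl4 (8.69, 7.66, 25.9 and 4.49 CPM). Next came Cdkn1c (42.4, 24.9, 19.1 and 11.5 CPM) and Actc1 (94.2, 140, 316 and 167 CPM), with CVs of 53.7% and 53.5%. Myl4 and Actc1 were highest in wild-type 3 and Cdkn1c in wild-type 1. Of the 8 members, 2, 1, 4 and 1 were highest in wild-type 1 to 4.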

How the data were processed

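The 4 wild-type gastrocnemius libraries (QuantSeq 3' mRNA FWD) were analysed. The submitters' processing notes name the genome build GRCm38 (mm10) and the tools RSEM 1.3.3, STAR 2.7.0 and fastp 0.20.0. The authors deposited expected counts per gene, not normalized, and a table of TPM. Annotation release, strand setting and filters: not given in the sources used here. A further 6 columns that matched no sample label were not used. Expected counts were rounded, which moved a total by at most 30.2 counts, and 2.06% to 2.73% of values were not whole. CPM is counts-per-million of the library total over 55487 genes. Library totals ran from 3134575 to 6328533 counts, a ratio of 2.02. Positions and transcript lengths are from GENCODE M21, and copies were aligned with blastn 2.17.0. Spread is the SD or the coefficient of variation of 4 libraries, and the common dispersion is from edgeR 4.0.16 with an intercept only, over 8803 genes, tested on simulated data. Alternatives were the deposited TPM, other totals and filters, TMM, DESeq2 1.42.0 size factors, and each library left out.

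Genes were placed in 1 class each from written lists. Named were the 30 highest genes, up to 4 highest per subclass, both genes of each pair, the 12 most and 8 least variable genes (mean CPM at least 20 and 100), up to 4 of each list of responsive genes with the largest spread (mean CPM at least 5), and the 10 highest genes in no class. mt-Nd5, mt-Nd6, Cacna1s, Pax7, Myh3, Myh8 and Trim63 were chosen after their values were seen. Some genes that this rule names are not reported here. The classes, lists and pairs were chosen with earlier results of these data known. The pair of Aldoa with Aldoc was not analysed because the symbol Aldoa belongs to 2 gene identifiers. Nothing in the labels says more of how the mice relate, so the spread is that between these 4 libraries.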

Additional observations from a re-analysis of the deposited data

Results flagged for a closer look

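For each share, ratio and gene level given for the 4 wild-type libraries, the gap between the highest or lowest library and its nearest neighbour was set against the whole range. Of 236 quantities screened, 29 had a larger gap, as a part of the range, than Dixon's 95% critical value for 4 samples. Chance gives about 1 in 20 for quantities not chosen by their spread, and quantities that share genes are not independent. Of the 236, 32 were genes named for their large spread, to which that rate does not apply, and 9 of these were among the 29. The other 204 gave 20, but they still hold genes named for their small spread. Of those, Casq1 (CV 1.08%, against 1.68% from counting alone) and Ubr3 (1.83%, against 3.46%) were among the 20. Both varied less than counting alone gives, so their gaps carry little meaning.

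Wild-type 4 was the distant library for 11. It was the highest for the mitochondrial ribosome share (0.371% of tags, against 0.306% to 0.314%), the complex IV subunit Cox6a2 (2511 CPM, against 1853 to 1923), the complex I subunit Ndufb8 (910 CPM, against 524 to 575), Pygm (5104 CPM, against 3097 to 3278), Pkm (2434 CPM, against 1251 to 1406), Ndrg2 (2233 CPM, against 1234 to 1382), Tnni2 (14401 CPM, against 12619 to 12892), Rpl3l (360 CPM, against 291 to 300.2), Ubr3 (189 CPM, against 182 in each of the others) and Amd-ps3 (184 CPM, against 0.948 to 1.03), a pseudogene that shares reads with Amd1. It was the lowest for mt-Rnr1 (728 CPM, against 5346 to 5668).

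Wild-type 3 was the distant library for 10. It was the highest for Xist (112 CPM, against 0 in each of the others), Pdk4 (139.5 CPM, against 2.93 to 15.5), Scd1 (235 CPM, against 35.7 to 64.6), Dusp1 (116 CPM, against 26.8 to 40.8), Fos (40.1 CPM, against 4.30 to 7.34), Nr4a3 (24.8 CPM, against 1.28 to 4.88), Adipoq (29.1 CPM, against 6.70 to 8.79), Pygb (3.16 CPM, against 0.828 to 1.17) and the protein turnover share (1.92% of tags, against 1.70% to 1.73%). It was the lowest for Myom3 (19.4 CPM, against 51.2 to 53.2).

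Wild-type 2 was distant for 5. Gm28438 was high (8545 CPM, against 269 to 1119), as was mt-Co1 (4633 CPM, against 3999 to 4039). Both share reads with a near-identical gene, and in the sums wild-type 2 lay close to wild-type 1. The sums were 8353, 8990, 7436 and 4824 CPM for mt-Nd3 with Gm28438. For mt-Co1 with Gm29216 they were 7629, 7752, 4397 and 4761 CPM. Also high were Phka1 to Phka2, subunits of phosphorylase kinase (272 to 1, against 109 to 123, with 5 counts of Phka2), and Cox8b to Cox8a (10.7 to 1, against 9.25 to 9.45). Hba-a2 was low (578 CPM, against 973 to 1009). Wild-type 1 was distant for 3. The lipid uptake and storage share was low (0.154% of tags, against 0.198% to 0.203%). Casq1 (791 CPM, against 773 to 776) and Pax7 (1.86 CPM, against 0.948 to 0.977) were high, and Pax7 rests on few counts.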

How the results depend on the processing

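No paired analysis was possible because the 4 libraries form 1 group and their numbers follow the order of the records. On deposited TPM the share was 18.0% for contractile, 9.72% for nuclear mitochondrial, 3.32% for metabolic and 3.45% for calcium handling genes, and 850 genes in place of 2084 (of the mean profile) held 90%. With mitochondrially encoded genes left out of the total, the shares were 27.4% for contractile, 8.38% for nuclear mitochondrial, 7.37% for metabolic, 4.45% for calcium handling and 0.782% for non-fibre genes, and 108 genes in place of 24 held 50%. With genes left out that had a non-whole count in every library, metabolic genes held 6.29%, calcium handling 4.06% and non-fibre genes 0.391%. With the nuclear copies Gm10925, Gm28438, Gm29216 and Gm10222 added, a choice made after seeing the data, mitochondrially encoded genes held 33.0%. Leaving out each library in turn moved the median CV between 9.50% and 18.2%, the genes above 50% between 59 and 121, and the common biological coefficient of variation between 15.6% and 24.8%. The lowest median and lowest common value came without wild-type 4, the highest count without wild-type 1, and a count of 118 without wild-type 2. Of 42 isoform ratios, 21 moved by less than 1 SD on TPM, 20 by more in the same direction, and Cox7a1 to Cox7a2 changed sign (log2 0.30). None of the 42 moved by 1 SD with unrounded counts or the median of libraries, and none changed sign without any 1 library. The cause of these shifts was not tested. TMM and DESeq2 size factors gave median CVs of 16.8%. Depth limits genes near 1 CPM, which rest on 3 to 6 counts per library.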
